A study of Rattus norvegicus with 30 samples.

Results

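Genes of glycolysis, glycogen metabolism and the hypoxia response were followed in primary cultures of rat inner medullary collecting duct cells held at, or moved between, several osmolalities. The set was drawn up by gene symbol. It holds 39 genes, and 39 of 39 were found among the 14506 genes with a probe set that names 1 gene. They are 14 genes of glucose uptake and glycolysis, 4 of lactate formation and transport, 3 pyruvate dehydrogenase kinases, 2 fructose bisphosphate regulators, 6 of glycogen metabolism, 4 regulators of the hypoxia response and 6 of its classical targets. The rule picks members by symbol and not by any measured value, though it was written with earlier results of these data known. Where a gene had several probe sets the brightest was used.

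RNA of the cells was measured on 30 Affymetrix whole-transcript rat arrays in 10 groups of 3. In 3 groups the cells were kept at 300, 600 or 900 mosmol/kg, called steady 300, steady 600 and steady 900 here. In 4 groups cells from 300 mosmol/kg had been at 600 mosmol/kg for 3, 12, 24 or 48 h, and in 2 groups cells from 600 mosmol/kg had been at 900 mosmol/kg for 12 or 24 h. The last group came from 900 mosmol/kg and had spent 24 h at 300 mosmol/kg. For every sample, controls included, the labels list 5 µM cyclosporin A, an inhibitor of the phosphatase calcineurin, though no title mentions it. The study compared these cultures to follow gene expression with tonicity. The labels name rat primary cells of the renal inner medulla, give neither strain nor age, and do not say which solute raised the osmolality. They do not state whether replicates were separate cultures or animals, so a p-value here sets a difference against the variation among these arrays, some or all of which may be technical.

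As background, glucose enters most cells through the transporter encoded by Slc2a1, is trapped by hexokinases and is broken down by the glycolytic enzymes to pyruvate, which lactate dehydrogenase can turn into lactate. The inner medulla is poorly oxygenated and draws much of its energy from this pathway. Hif1a and Epas1 encode the oxygen-regulated subunits of the hypoxia-inducible transcription factors. The prolyl hydroxylases encoded by Egln1 and Egln3 mark those subunits for breakdown when oxygen is present, so their activity is set largely by protein stability, which arrays do not measure. Pyruvate dehydrogenase kinases hold pyruvate back from oxidation in mitochondria, and glycogen phosphorylases release glucose units from glycogen.

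The hypoxia-inducible factors bind a core of ACGTG or GCGTG. RefSeq promoter windows of the GRCr8 assembly were taken as the 250 bases before a transcription start. They were matched by Entrez gene identifier to 37 of the 39 genes with 42 starts. Ndrg1 and Pgk1 had no entry in the table used here. The 5 members with the largest range of group means are shown because they moved most. Capitals mark a core on either strand (CACGT is ACGTG read on the opposite strand).
Pygm, chr1:213119555-213119804, plus strand: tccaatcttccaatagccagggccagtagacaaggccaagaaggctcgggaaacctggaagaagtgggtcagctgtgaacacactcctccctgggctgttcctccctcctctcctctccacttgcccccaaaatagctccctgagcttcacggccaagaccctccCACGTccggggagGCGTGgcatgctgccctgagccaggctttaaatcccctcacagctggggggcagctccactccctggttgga
Eno2, chr4:159267221-159267470, minus strand: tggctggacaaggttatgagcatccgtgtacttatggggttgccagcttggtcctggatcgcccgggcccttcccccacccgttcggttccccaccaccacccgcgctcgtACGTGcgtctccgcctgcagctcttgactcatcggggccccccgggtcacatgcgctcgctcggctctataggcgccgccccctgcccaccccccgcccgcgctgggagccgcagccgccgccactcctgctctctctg
Adm, chr1:174179950-174180199, plus strand: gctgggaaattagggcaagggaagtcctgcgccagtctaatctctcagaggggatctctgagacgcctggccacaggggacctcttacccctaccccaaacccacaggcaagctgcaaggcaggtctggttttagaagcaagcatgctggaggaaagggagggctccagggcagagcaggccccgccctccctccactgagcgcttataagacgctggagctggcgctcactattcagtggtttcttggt
Pfkfb3, chr17:71944683-71944932, plus strand: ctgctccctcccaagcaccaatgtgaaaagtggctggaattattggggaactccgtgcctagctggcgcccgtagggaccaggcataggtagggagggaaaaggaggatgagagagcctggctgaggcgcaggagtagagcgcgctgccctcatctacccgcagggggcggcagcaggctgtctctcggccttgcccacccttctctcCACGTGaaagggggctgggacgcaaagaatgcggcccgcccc
Vegfa, chr9:22452604-22452853, plus strand: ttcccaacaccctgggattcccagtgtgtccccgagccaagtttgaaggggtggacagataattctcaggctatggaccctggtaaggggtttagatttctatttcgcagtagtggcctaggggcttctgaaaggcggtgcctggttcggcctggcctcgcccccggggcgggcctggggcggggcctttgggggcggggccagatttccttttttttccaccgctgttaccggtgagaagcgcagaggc

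The Pygm window holds a core 81 to 85 bases and another 68 to 72 bases before the start, and the Eno2 window holds 1 at 135 to 139 bases. In Pfkfb3 the cores of both strands overlap in CACGTG, the palindrome known as an E box, between 37 and 42 bases before the start. The Adm window and those of both Vegfa starts, of which the first is shown, hold neither core. A core occurred in 28 of the 42 member starts (66.7%) and in 36.7% of 33469 starts of all genes. For ACGTG alone the shares were 42.9% and 16.6%, for GCGTG 45.2% and 25.9%, and for CACGTG, which contains ACGTG on both strands, 16.7% and 5.59%. The tonicity-responsive element TonE, the binding sequence of Nfat5, was in 0 of 42 member starts and in 5.17% of all. All searches covered both strands. Member windows were also richer in G and C, with a median of 62.4% against 51.2%, and held a median of 16 CpG against 5, and the part of base composition in these shares was not tested. A match is no evidence of binding.

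The arrays agreed closely within groups, with correlations of 0.991 to 0.998 over all genes, and each of the 30 arrays was nearest to one of its own group. Replicate 3 at 3 h after the step to 600 and replicate 9 at 12 h after the step to 900 stood apart: their median absolute difference from the other arrays of their group was 0.19 to 0.21 on the log2 scale, against at most 0.14 between any other 2 arrays of a group. The counts and the changes that moved most are given with and without them. Collecting duct markers were uneven in steady 300. Aqp2, the vasopressin-regulated water channel, had a mean log2 level of 5.61 there, while 30% of genes lay below 5.05, and rose to 12.04 in steady 900. Of the 13 markers listed, 4 lay below that 30% level in steady 300, while Aqp4 was at 6.41, Fxyd4 at 6.51 and Gata3 at 9.375. Scnn1b, Scnn1g and Kcnj1, channel genes of the collecting duct, had group means of at most 5.05 in all 10 groups.

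Across the 10 groups the members had larger ranges than the genes of the whole table. The members were listed with earlier results of these data known. Apart from Pygm, each had a mean log2 level above 5.05, while the whole table holds many dimmer genes. All genes were not matched to the members for brightness, here or in the other comparisons with them. The part of brightness in such differences was not tested. The range between the highest and lowest group mean was 1.11 (log2) in the median member and 0.66 in the median gene of the whole table, and it was at least 1 in 22 members (56.4%) and in 27.3% of all genes. All 39 members passed limma's F test for any difference among the 10 groups at an adjusted p of 0.05, as did 73.7% of all genes tested. The largest F values belonged to Eno2, Adm and Pfkfb3. At 3 h after the step to 600, 15 members (38.5%) had their highest group mean, against 16.2% of all genes. Other choices lowered that number: the other scalings of the arrays gave 13 or 14 members, leaving out replicate 3 at 3 h gave 12, and leaving out replicate 9 at 12 h after the step to 900 gave 13. Without replicate 3, Vegfa was highest at 12 h after the step to 600, Egln1 at 12 h after the step to 900 and Ankrd37 at 48 h after the step to 600. Another 8 members were highest in steady 900 and 8 at 24 h after the step to 900. With the other scalings these counts were 7 in steady 900 and 7 or 8 at 24 h. At 12 h after the step to 900 the count was 1 as deposited and 4 or 5 with the other scalings.

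**Figure D1:**
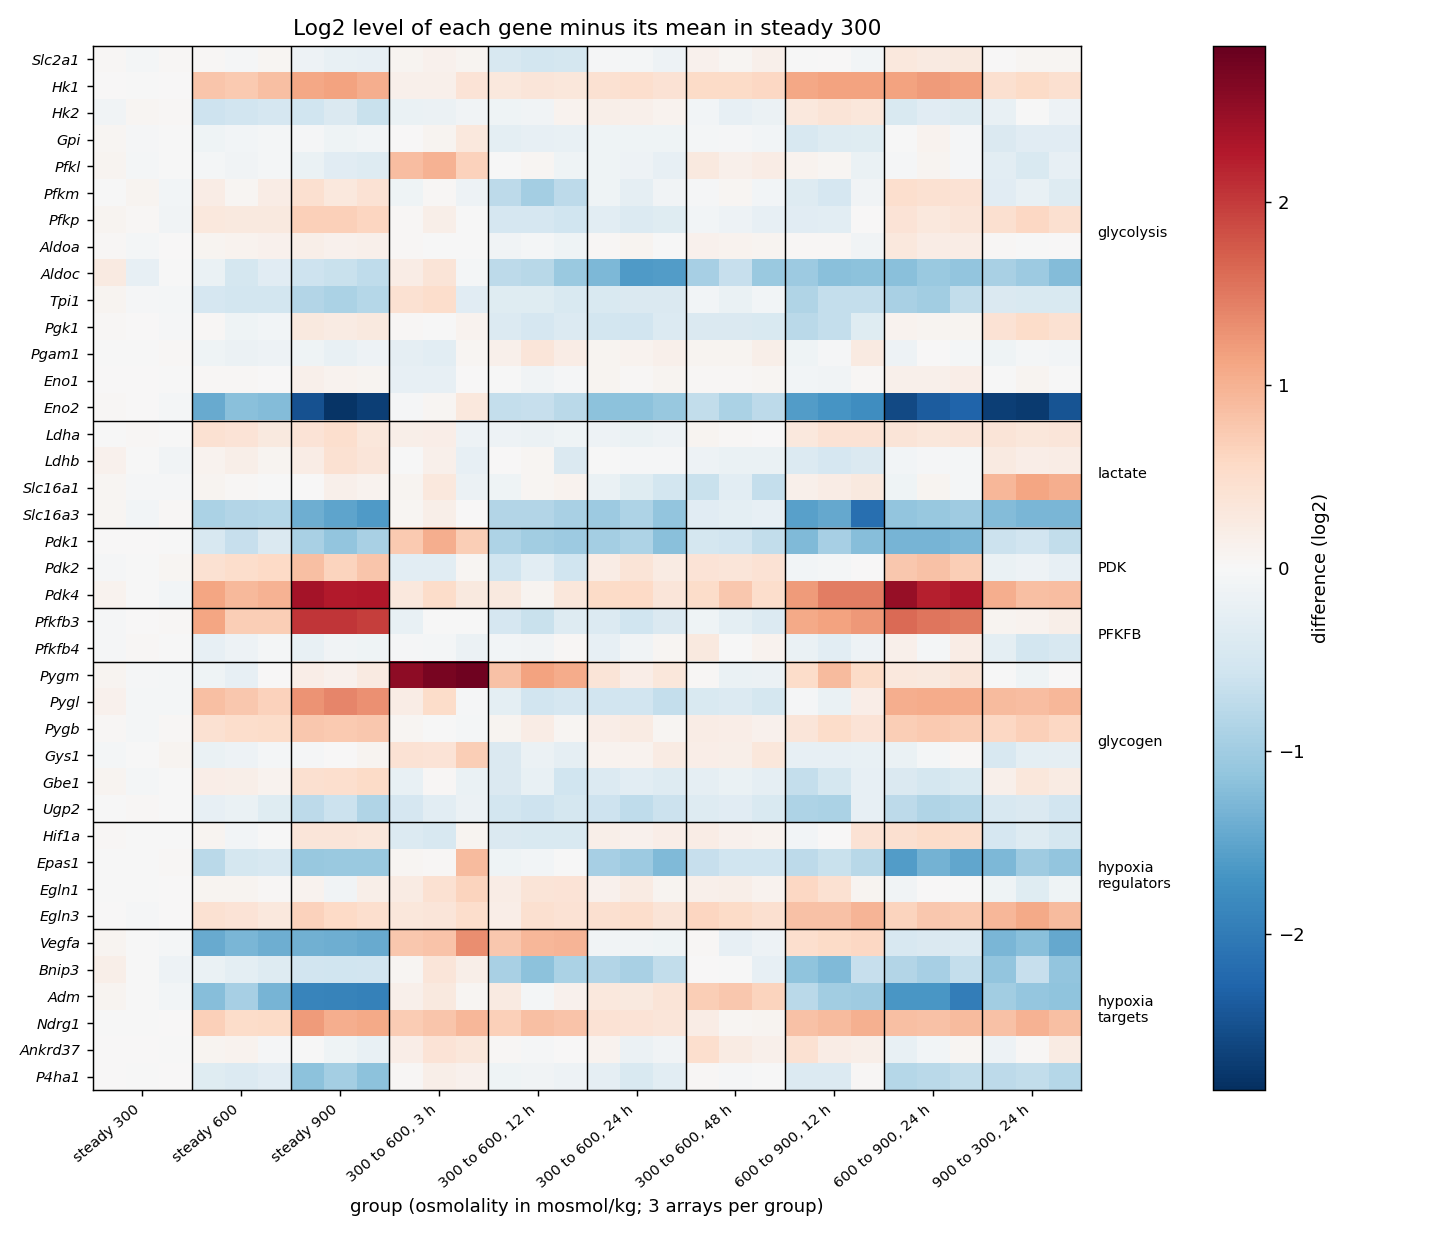
Difference of the log2 level of each of the 39 genes on each of the 30 arrays from its mean in steady 300 (colour; red higher, blue lower), with arrays in columns by group and genes in rows by role. Eno2, Slc16a3 and Adm turn blue and Pdk4 and Pfkfb3 red from steady 300 to steady 900, and the red block of Pygm is darkest at 3 h after the step to 600.

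In the steady cultures, genes of one pathway went in opposite directions with osmolality. The kinase genes Pdk4 and Pfkfb3, the phosphorylase gene Pygl and Hk1 were higher at higher osmolality, while the enolase gene Eno2, the lactate exporter gene Slc16a3 and the hypoxia targets Adm, Vegfa and P4ha1 were lower. In steady 600 against steady 300, 10 members rose and 10 fell at a limma adjusted p of 0.05, which is 51.3% of the members against 27.1% of all genes (13.7% higher and 13.4% lower). In steady 900 against steady 300, 15 rose and 14 fell, against 42.4% of all genes (20.2% higher and 22.3% lower). In steady 900 against steady 600, 13 rose and 9 fell, against 24.2% of all genes (11.3% higher and 12.9% lower). The median change of the members was -0.0010, 0.06 and 0.02 in these comparisons, and that of all genes was 0.01, -0.0032 and -0.01.

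Among the genes of glucose uptake and glycolysis, 2 of 14 rose and 4 fell in steady 600, and 4 rose and 6 fell in steady 900, each against steady 300. Eno2, the enolase typical of neurons and endocrine cells, had log2 levels of 8.99, 8.96 and 8.90 on the steady 300 arrays, 7.52, 7.76 and 7.71 on the steady 600 arrays and 6.47, 6.15 and 6.28 on the steady 900 arrays. The groups did not overlap, and the level was lower at each higher osmolality. Its log2 change was -1.29 ± 0.10 (SE) from steady 300 to 600 (adjusted p = 1.36e-11) and -2.65 ± 0.10 from steady 300 to 900 (adjusted p = 2.84e-19), a level 6.28-fold lower. Eno1, the enolase of most tissues, was bright in all groups and its change of 0.11 ± 0.07 from steady 300 to 900 missed the threshold (adjusted p = 0.2). Hk1, a constitutive hexokinase bound to mitochondria, had levels of 9.26, 9.23 and 9.25 in steady 300, 10.03, 9.99 and 10.10 in steady 600 and 10.34, 10.39 and 10.29 in steady 900. It rose by 1.09 ± 0.07 from steady 300 to 900 (adjusted p = 1.91e-14). Hk2, the inducible hexokinase, went the other way: its levels of 8.76, 8.91 and 8.88 in steady 300 exceeded every array of steady 600 (8.26, 8.30 and 8.36) and of steady 900 (8.29, 8.44 and 8.21), while the latter groups overlapped.

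Slc2a1, the basal glucose transporter gene, was nearly level, with 10.52, 10.43 and 10.52 in steady 300, 10.53, 10.47 and 10.55 in steady 600 and 10.34, 10.28 and 10.26 in steady 900. Its fall by 0.20 ± 0.06 from steady 300 to 900 (adjusted p = 0.00784) missed the threshold with cyclic loess scaling, where the change was -0.15 (adjusted p = 0.0683). The phosphofructokinase genes parted: from steady 300 to 900 the platelet form Pfkp rose by 0.65 ± 0.08 and the muscle form Pfkm by 0.40 ± 0.09, and the liver form Pfkl fell by 0.29 ± 0.09. Tpi1, which interconverts the triose phosphates, fell by 0.85 ± 0.12 (adjusted p = 9.38e-07) and the aldolase gene Aldoc by 0.65 ± 0.13 (adjusted p = 9.2e-05), while Pgk1, the first enzyme of the pathway to yield ATP, rose by 0.26 ± 0.08. Aldoa, Gpi and Pgam1 did not pass in either comparison with steady 300. Under some alternative processing Aldoa, Pgam1 and Eno1 did pass in steady 900 against steady 300.

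Of the lactate genes, Slc16a3, whose product exports lactate from glycolytic cells, had levels of 9.97, 9.83 and 9.96 in steady 300, 9.02, 9.08 and 9.12 in steady 600 and 8.53, 8.41 and 8.31 in steady 900. The groups were in falling order without overlap, with a change of -1.51 ± 0.11 from steady 300 to 900 (adjusted p = 1.48e-12). Ldha, which forms lactate from pyruvate, had levels of 12.62, 12.66 and 12.63 in steady 300 and was higher in steady 600 (13.07, 13.03 and 12.92) and steady 900 (13.02, 13.11 and 12.95), which overlapped. Its change from steady 300 to 900 was 0.39 ± 0.07 (adjusted p = 6.92e-05), close to the top of the range of the arrays, where changes can be understated. Ldhb, the form that favours pyruvate, rose by 0.33 ± 0.10 from steady 300 to 900, and Slc16a1, a transporter of lactate in both directions, had a change of 0.08 ± 0.10 (adjusted p = 0.601).

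The pyruvate dehydrogenase kinases diverged. Pdk4, a form induced by fasting and glucocorticoids in many tissues, had levels of 4.84, 4.73 and 4.67 in steady 300, below the level that 30% of genes do not reach. In steady 600 they were 5.87, 5.67 and 5.74 and in steady 900 they were 7.11, 7.01 and 7.03, so the groups rose in order without overlap. The change from steady 300 to 900 was 2.30 ± 0.10 (adjusted p = 6.57e-18), a level 4.94-fold higher. Pdk2, a widely expressed form, rose by 0.76 ± 0.09 (adjusted p = 2.89e-08) over the same interval. Pdk1, the form best known as a hypoxia target, fell by 0.51 ± 0.10 to steady 600 and by 0.99 ± 0.10 to steady 900 (adjusted p = 1.05e-09).

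Pfkfb3, whose product makes the activator of phosphofructokinase, followed Pdk4. Its levels were 7.99, 8.03 and 8.07 in steady 300, 9.16, 8.73 and 8.73 in steady 600 and 10.07, 10.08 and 9.99 in steady 900. It was 4.05-fold higher in steady 900 than in steady 300 (2.02 ± 0.10, adjusted p = 9.4e-17) and higher in steady 900 than in steady 600 by 1.17 ± 0.10 (adjusted p = 9.78e-11). The related Pfkfb4 had changes of -0.15 ± 0.09 in both steady 600 and steady 900 against steady 300, short of the threshold.

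Of the 6 glycogen genes, 3 rose and 1 fell in steady 900 against steady 300. Pygl, the phosphorylase of liver, had levels of 7.95, 7.77 and 7.76 in steady 300, 8.67, 8.60 and 8.47 in steady 600 and 9.10, 9.21 and 9.13 in steady 900, again without overlap. Its change from steady 300 to 900 was 1.32 ± 0.10 (adjusted p = 7.41e-12). The brain form Pygb rose by 0.76 ± 0.07 (adjusted p = 9.69e-11) and Gbe1, which places the branches of glycogen, by 0.49 ± 0.09 (adjusted p = 5.99e-05), while Ugp2, which makes UDP-glucose for glycogen synthesis, fell by 0.73 ± 0.11 (adjusted p = 3.44e-06). Gys1, the glycogen synthase of most tissues, had 7.43, 7.48 and 7.57 in steady 300, 7.30, 7.36 and 7.44 in steady 600 and 7.45, 7.51 and 7.56 in steady 900; steady 300 overlapped both other groups, and steady 900 lay just above steady 600 on every array. The muscle phosphorylase gene Pygm was near the bottom of the scale in all 3 steady groups, with values from 3.87 to 4.37, and was the only member whose mean over the 30 arrays lay below the 30th percentile of genes.

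Among the regulators of the hypoxia response, Epas1 fell and Egln3 rose. Epas1, the alpha subunit typical of endothelial and interstitial cells, had levels of 9.65, 9.66 and 9.69 in steady 300, 8.90, 9.18 and 9.22 in steady 600 and 8.59, 8.62 and 8.62 in steady 900. Its change from steady 300 to 900 was -1.06 ± 0.14 (adjusted p = 2.05e-07). Hif1a had 10.94, 10.90 and 10.90 in steady 300, 10.999, 10.84 and 10.91 in steady 600 and 11.26, 11.26 and 11.24 in steady 900; only steady 900 stood apart, with a change of 0.34 ± 0.10 against steady 300 (adjusted p = 0.00952). Egln3, itself a known target of the factors it restrains, had 8.73, 8.69 and 8.74 in steady 300, 9.16, 9.10 and 9.03 in steady 600 and 9.38, 9.28 and 9.21 in steady 900. It rose by 0.57 ± 0.08 from steady 300 to 900 (adjusted p = 6.09e-07), and Egln1 had a change of 0.06 ± 0.11.

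Of the 6 classical targets, 4 fell and 1 rose in steady 900 against steady 300. Vegfa, the endothelial growth factor gene, had 8.44, 8.36 and 8.33 in steady 300, 6.95, 7.06 and 6.99 in steady 600 and 7.01, 6.98 and 6.93 in steady 900. It was lower in both hyperosmotic groups, which overlapped, and in steady 900 was 2.64-fold lower than in steady 300 (-1.40 ± 0.10, adjusted p = 1.21e-12). Adm, the gene of the vasodilator adrenomedullin, fell stepwise from 7.64, 7.54 and 7.48 through 6.34, 6.60 and 6.23 to 5.66, 5.66 and 5.64, and was 3.74-fold lower in steady 900 than in steady 300 (-1.90 ± 0.10, adjusted p = 6.59e-16). P4ha1, a collagen prolyl hydroxylase subunit, fell by 1.10 ± 0.09 (adjusted p = 9.55e-12), and Bnip3, a mitophagy receptor gene with levels of 8.67, 8.50 and 8.37 in steady 300 and 7.96, 7.95 and 7.97 in steady 900, by 0.56 ± 0.13 (adjusted p = 0.000831). Ndrg1, which is also induced by stress and differentiation signals, rose from 8.87, 8.87 and 8.91 in steady 300 to 9.57, 9.41 and 9.43 in steady 600 and 10.10, 9.91 and 9.96 in steady 900. Its change to steady 900 was 1.11 ± 0.08 (adjusted p = 2.79e-13). Ankrd37 passed in neither comparison.

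**Figure D2:**
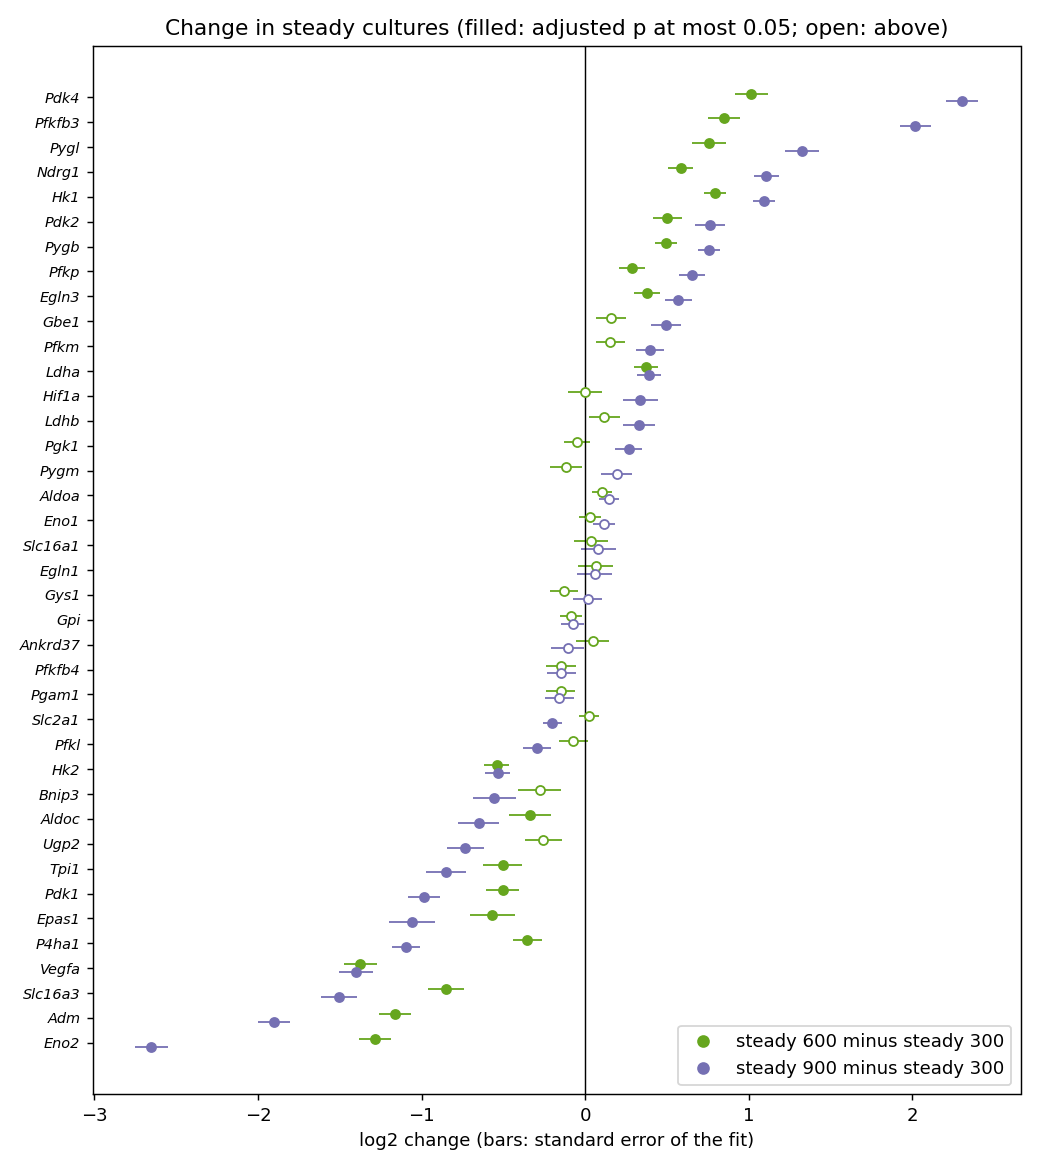
Log2 change of the 39 genes in steady 600 (green) and steady 900 (purple) against steady 300, ordered by the latter, with bars for the standard error of the fit; filled points have an adjusted p of at most 0.05. Pdk4 and Pfkfb3 lie at the upper end, with changes of 2.30 and 2.02 in steady 900, and Eno2 at the lower end with -2.65.

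Markers of several cell types changed across the same cultures. In steady 900 against steady 300, 11 of 13 collecting duct markers rose and 0 fell, 0 of 12 fibroblast markers rose and 9 fell, and 0 of 13 leukocyte markers rose and 13 fell. The summed linear signal of the collecting duct list was 1160 to 1284 in steady 300 and 18186 to 19468 in steady 900, that of the fibroblast list 26157 to 26992 and 4944 to 5191, and that of the leukocyte list 11685 to 12588 and 3164 to 3457. Of the list for other tubule segments, 5 of 8 rose, with a sum of 423 to 477 in steady 300 and 6018 to 6418 in steady 900. Among those that rose, Slc12a1, Aqp1 and Cldn10 had means of 4.59, 7.85 and 5.81 in steady 300. In steady 900 these means were 6.66, 12.18 and 8.96. Umod and Slc34a1 of the same list were below 5.05 in every group. The 7 endothelial markers measured split into 2 up and 2 down. In steady 600 against steady 300, 10 of 13 collecting duct markers rose and 0 fell, 2 of 12 fibroblast markers rose and 7 fell, and 0 of 13 leukocyte markers rose and 12 fell. In these mixed RNA samples fewer cells of a type and less RNA per cell cannot be told apart, and the part of such markers in the changes of the metabolic genes was not tested.

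Of the 20 calls in steady 600 against steady 300, 18 held under every alternative tried. Pygm is dropped by the filter at the 30th percentile and has no value there, so for Pygm this means the other alternatives here and below. Pfkp (0.29 ± 0.08) was lost when steady 300 replicate 3 was left out (0.23, adjusted p = 0.0542). Aldoc (-0.34 ± 0.13), whose groups overlapped, missed it without any of 4 single arrays, with changes between -0.35 and -0.21. Of the 22 calls in steady 900 against steady 600, 16 held; Slc2a1, Pfkm, Tpi1, Pdk2, Pygm and Hif1a did not, and of these Hif1a was lost only without steady 600 replicate 2 (0.30, adjusted p = 0.0789). Slc2a1 was lost with cyclic loess scaling (-0.17, adjusted p = 0.0603), and the others without single arrays, where the adjusted p reached at most 0.197 (Pfkm without steady 600 replicate 2).

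The move from 300 to 600 mosmol/kg was followed at 4 times against steady 300. These comparisons share the steady 300 arrays, so each is given by its own values. After 3 h 11 members rose and 1 fell, which is 30.8% of the members against 41.6% of all genes; over all genes the calls leaned down, with 12.1% higher and 29.5% lower. After 12 h 7 rose and 18 fell, 64.1% against 34.5% of all genes, of which 11.9% were higher and 22.6% lower. After 24 h 7 rose and 15 fell, 56.4% against 22.3% of all genes, with 9.40% higher and 13.0% lower. After 48 h 6 rose and 9 fell, 38.5% against 21.6% of all genes, with 9.57% higher and 12.0% lower. The member medians at these times were 0.10, -0.13, -0.11 and -0.01, and those of all genes -0.04, -0.01, 0.01 and 0.01.

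At 3 h the muscle phosphorylase gene Pygm rose most. Its levels of 6.65, 6.82 and 6.89 lay far above the 4.19, 4.08 and 4.05 of steady 300, a difference of 2.68 ± 0.10 (adjusted p = 5.19e-18) or 6.41-fold. Vegfa, with 9.15, 9.19 and 9.70, rose by 0.97 ± 0.10 (adjusted p = 1.79e-08). Pfkl had 9.95, 10.05 and 9.72 against 9.13, 9.00 and 9.05 in steady 300 and rose by 0.85 ± 0.09 (adjusted p = 1.36e-08). Pdk1, which was lower in the steady hyperosmotic cultures, was higher here, at 7.99, 8.29 and 7.94 against 7.25, 7.25 and 7.24 (0.83 ± 0.10, adjusted p = 1.43e-07). Ndrg1 rose by 0.82 ± 0.08 (adjusted p = 1.89e-09), and Gys1, with 7.90, 7.89 and 8.19, by 0.50 ± 0.09 (adjusted p = 3.71e-05). Of the 6 glycogen genes, Pygm and Gys1 rose, Ugp2 fell and Pygl, Pygb and Gbe1 were not called. Egln3, with 9.04, 9.07 and 9.22, rose by 0.39 ± 0.08, and Pdk4, with 5.04, 5.27 and 5.02, by 0.36 ± 0.10 (adjusted p = 0.00391).

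The 3 h group was the least even. Replicate 3 differed from replicates 1 and 2 in Tpi1 (10.74 against 11.47 and 11.56), Epas1 (10.57 against 9.73 and 9.69), Hif1a (10.99 against 10.52 and 10.46) and Ldha (12.50 against 12.81 and 12.83). Without it, 14 members rose and 5 fell; the change was 2.63 for Pygm, 0.79 for Vegfa and 0.40 for Gys1, Tpi1 passed at 0.47 ± 0.07 (adjusted p = 1.86e-05) and Hif1a at -0.42 ± 0.09 (adjusted p = 0.000493), and that of Epas1 went from 0.33 to 0.04 (adjusted p = 0.759). With quantile scaling 23 rose and 0 fell, with cyclic loess scaling 22 rose and 0 fell, and with median centring 11 rose and 3 fell. Of the calls over all genes, 70.9% were lower as deposited and 74.7% with median centring. With quantile scaling this share was 58.3% and with cyclic loess scaling 59.1%. Vegfa, Pfkl, Pdk1, Ndrg1, Gys1, Egln3 and Pdk4 kept direction and call under every alternative, and Pygm under all but the filter that drops it. The other 4 calls did not. Hk1 (0.23 ± 0.07) missed the threshold when only the arrays compared were fitted (adjusted p = 0.108), and Egln1 (0.43 ± 0.11) when its probe sets were averaged (0.29, adjusted p = 0.083). Ankrd37 (0.30 ± 0.10) missed it with cyclic loess scaling and without either of 2 single arrays (changes of 0.26 and 0.29). Ugp2, the only gene that fell (-0.31 ± 0.11), missed it with 2 scalings, under which its change was -0.14 and -0.11, and without any of 5 single arrays. At 3 h, 5 of 13 collecting duct markers were up and 0 down, 1 of 12 for fibroblasts up and 4 down, and 2 of 13 for leukocytes up and 3 down; their part in these changes was not tested.

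At 12 h most of the glycolytic calls were downward, with 2 of 14 genes higher and 8 lower. Pfkm, with 7.74, 7.53 and 7.74 against 8.48, 8.57 and 8.41 in steady 300, fell by 0.82 ± 0.09 (adjusted p = 1.84e-08) and Pfkp by 0.51 ± 0.08. Slc2a1 was at 10.04, 9.97 and 9.998, its lowest in any group, and fell by 0.49 ± 0.06 (adjusted p = 2.14e-07). Aldoc fell from 7.55, 7.07 and 7.29 to 6.55, 6.52 and 6.24 (-0.87 ± 0.13, adjusted p = 3.32e-06), and Slc16a3 to 9.08, 9.08 and 9.01 (-0.87 ± 0.11, adjusted p = 3.14e-07). Pdk1 had turned round, at 6.36, 6.26 and 6.21, a change of -0.97 ± 0.10 (adjusted p = 6.12e-09), and Bnip3, at 7.60, 7.35 and 7.62, showed one of -0.99 ± 0.13 (adjusted p = 6e-07). Hif1a was at 10.49, 10.48 and 10.47 and fell by 0.43 ± 0.10 (adjusted p = 0.00164), while Epas1, at 9.55, 9.58 and 9.67, had a change of -0.07 ± 0.14 (adjusted p = 0.762).

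A few genes were still higher at 12 h. Pygm, at 4.95, 5.24 and 5.16, remained above steady 300 by 1.01 ± 0.10 (adjusted p = 1.91e-09), and Vegfa, at 9.15, 9.33 and 9.35, by 0.90 ± 0.10 (adjusted p = 3.93e-08). Ndrg1 was at 9.57, 9.73 and 9.70 (0.78 ± 0.08, adjusted p = 2.13e-09), and Egln3 at 8.91, 9.18 and 9.13 (0.35 ± 0.08, adjusted p = 0.000771). Pfkfb3 and Pygl, which were higher in steady 600 than in steady 300, were lower at 12 h: Pfkfb3 at 7.55, 7.40 and 7.65 fell by 0.49 ± 0.10 (adjusted p = 0.000171) and Pygl at 7.55, 7.29 and 7.35 by 0.43 ± 0.10 (adjusted p = 0.00166). Of the 25 calls, 21 held under every alternative, and Tpi1, Pgam1, Gys1 and Egln1 did not; without single arrays their adjusted p reached at most 0.177 (Pgam1 without replicate 2 at 12 h). At 12 h the summed signal of the collecting duct list was 713 to 760, below the 1160 to 1284 of steady 300, with 1 of 13 markers up and 4 down, and that of the leukocyte list was 11176 to 14702, with 3 of 13 up and 0 down. Of the fibroblast markers 1 of 12 was up and 6 down, and of the endothelial ones 0 of 7 up and 6 down; their part in these changes was not tested.

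At 24 h Vegfa had returned to 8.28, 8.28 and 8.25, within -0.11 ± 0.10 of steady 300 (adjusted p = 0.534). Aldoc reached its lowest levels of any group, 6.02, 5.68 and 5.71, a change of -1.50 ± 0.13 (adjusted p = 2.08e-10). Eno2, at 7.77, 7.78 and 7.87, fell by 1.14 ± 0.10 (adjusted p = 2.97e-10), Slc16a3, at 8.88, 9.03 and 8.81, by 1.02 ± 0.11 (adjusted p = 2.37e-08) and Pdk1, at 6.28, 6.36 and 6.05, by 1.02 ± 0.10 (adjusted p = 2.45e-09). Epas1, level at 12 h, was at 8.71, 8.63 and 8.41 and fell by 1.08 ± 0.14 (adjusted p = 4.98e-07). The leukocyte list, with 0 of 13 markers up and 10 down against steady 300, had dropped to a sum of 4640 to 5053 by this time. Fibroblast markers were up in 0 of 12 cases and down in 8, all 8 of these by more than 2-fold, and endothelial markers up in 1 of 7 and down in 6. The part of these markers in the fall of Epas1 and the other changes was not tested. Rises were smaller. Pdk4 was at 5.30, 5.31 and 5.09 (0.49 ± 0.10, adjusted p = 0.000356), Hk1 at 9.68, 9.72 and 9.66 (0.44 ± 0.07, adjusted p = 6.3e-06), Egln3 at 9.17, 9.22 and 9.09 (0.44 ± 0.08, adjusted p = 8.87e-05) and Ndrg1 at 9.29, 9.28 and 9.24 (0.38 ± 0.08, adjusted p = 0.000263). Slc16a1, Pdk2, Pygm and Adm lost their calls without single arrays, with an adjusted p of at most 0.156 (Pdk2 without replicate 2 at 24 h).

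At 48 h Adm rose, at 8.25, 8.33 and 8.20 the highest of any group, by 0.71 ± 0.10 against steady 300 (adjusted p = 2.48e-06). Pdk4, at 5.27, 5.51 and 5.24, was higher by 0.60 ± 0.10 (adjusted p = 2.85e-05), Hk1, at 9.79, 9.79 and 9.84, by 0.56 ± 0.07 (adjusted p = 1.31e-07) and Egln3, at 9.34, 9.26 and 9.18, by 0.54 ± 0.08 (adjusted p = 5.61e-06). The falls of Aldoc (-0.89 ± 0.13), Eno2 (-0.79 ± 0.10), Epas1 (-0.60 ± 0.14) and Pdk1 (-0.58 ± 0.10) were smaller in size than their values at 24 h, a difference between times that was not itself tested. Bnip3 was back at 8.52, 8.50 and 8.29, overlapping steady 300. Pfkfb3, Ugp2 and Ankrd37 lost their calls without single arrays, where the adjusted p reached at most 0.269 (Ankrd37 without replicate 1 at 48 h). At this time 5 of 13 collecting duct markers were up and 1 down, 1 of 12 for fibroblasts up and 9 down, and 0 of 13 for leukocytes up and 11 down; their part in these changes was not tested.

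After 48 h the cultures still differed from those kept at 600 mosmol/kg. Against steady 600, 11 members were higher and 13 lower (61.5% against 22.0% of all genes, 9.47% higher and 12.5% lower). Adm was 3.65-fold higher (1.87 ± 0.10, adjusted p = 7.8e-15) and Vegfa, at 8.40, 8.15 and 8.23, was higher by 1.26 ± 0.10 (adjusted p = 5.45e-11). Both had fallen in steady 600 against steady 300. At 48 h Adm was above steady 300, as given, and Vegfa differed from it by -0.12 ± 0.10 (adjusted p = 0.495). Slc16a3, at 9.60, 9.64 and 9.69, was higher by 0.57 ± 0.11 and Eno2, at 8.24, 8.05 and 8.19, by 0.49 ± 0.10. Pygl, at 7.38, 7.43 and 7.33, was lower than steady 600 by 1.21 ± 0.10 (adjusted p = 2.16e-10), and Pfkfb3, at 7.91, 7.75 and 7.63, had a change of -1.11 ± 0.10 (adjusted p = 2.44e-10). Slc16a1, at 6.999, 7.34 and 6.97 against 7.72, 7.68 and 7.62 in steady 600, changed by -0.57 ± 0.10 (adjusted p = 0.000109), and Aldoc by -0.55 ± 0.13. Of these 24 calls 18 held under every alternative, and Hk1, Pfkl, Tpi1, Pgam1, Ldhb and Pfkfb4 did not, with an adjusted p without single arrays of at most 0.2 (Pfkfb4 without replicate 1 at 48 h). Collecting duct markers were lower than in steady 600 in 10 of 13 cases and higher in 0, with a sum of 1205 to 1414 against 6757 to 8709, and their part in these differences was not tested.

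**Figure D3:**
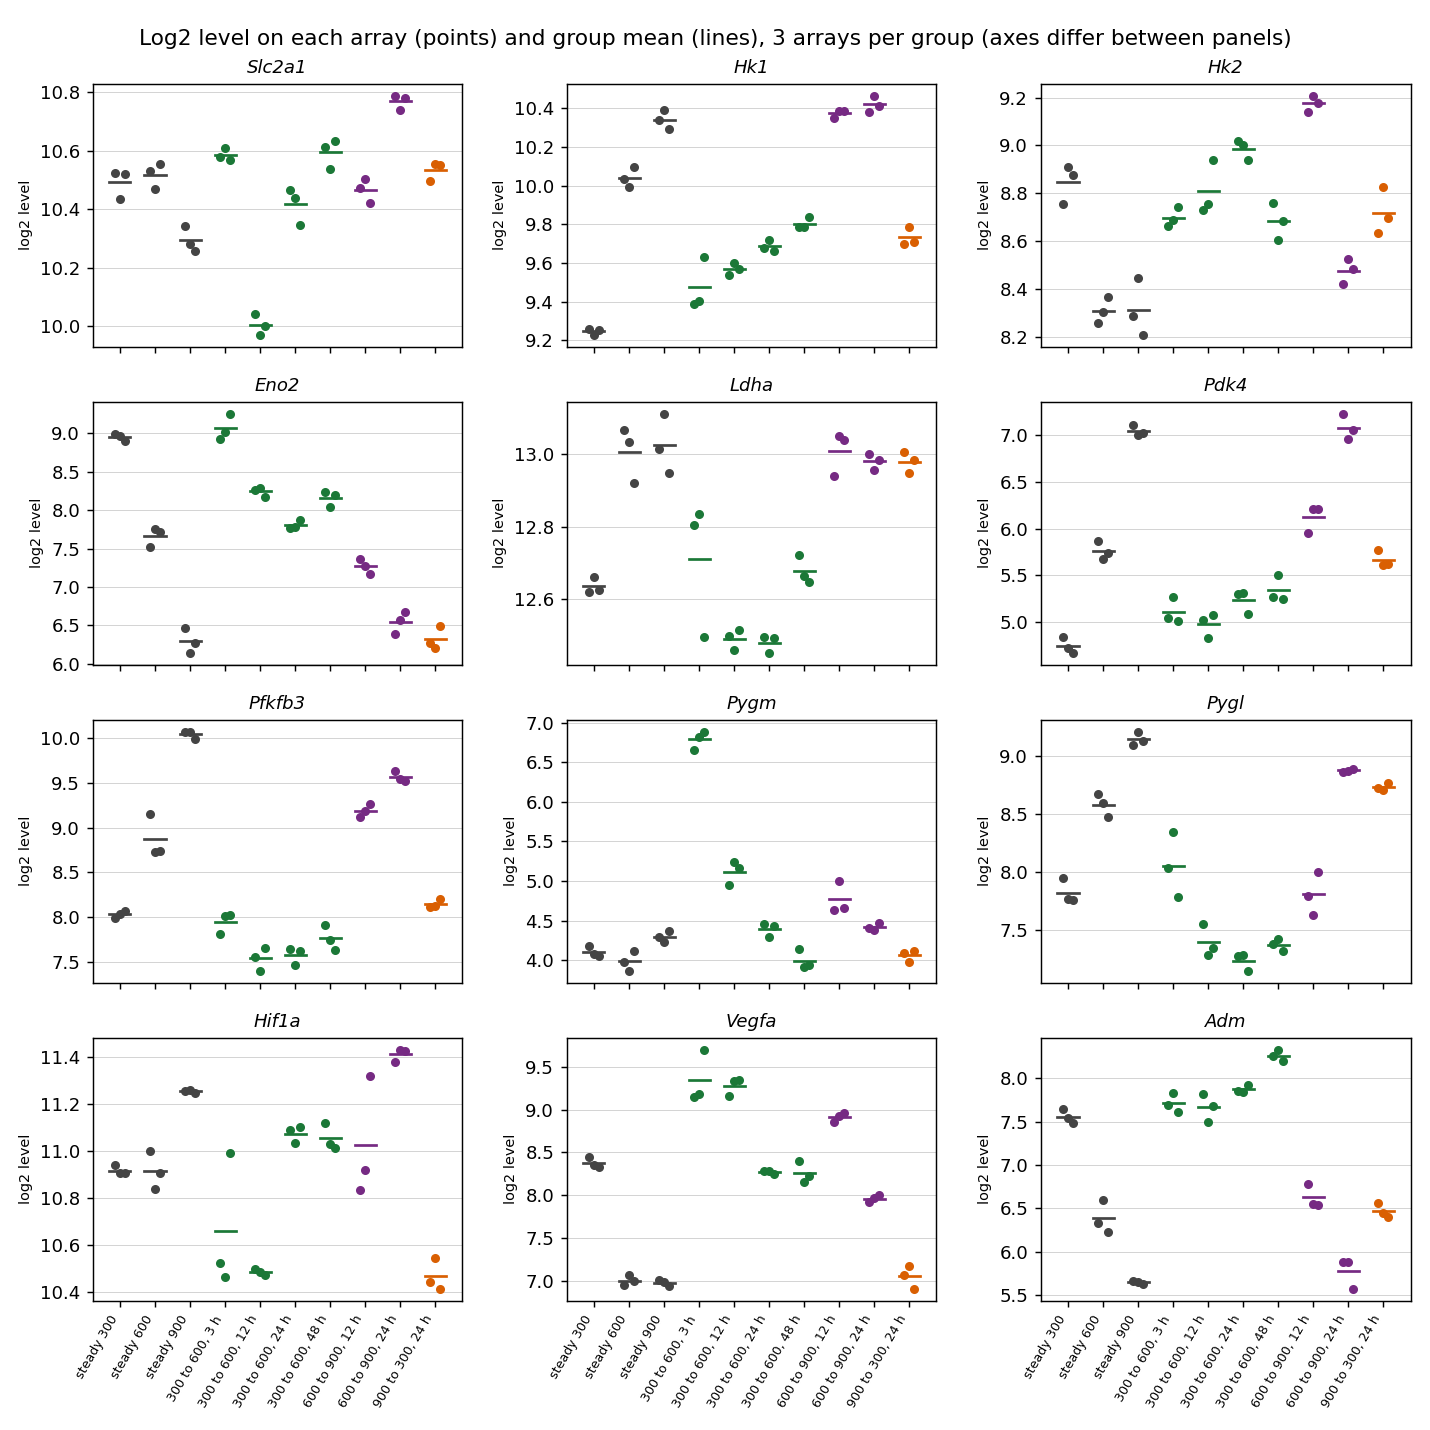
Log2 level of 12 of the 39 genes on each array (points, 3 per group) and group mean (lines) in steady cultures (grey), after the step from 300 to 600 mosmol/kg (green), after the step from 600 to 900 mosmol/kg (purple) and 24 h after return from 900 to 300 mosmol/kg (orange). Pfkfb3 and Pygl are high in steady 600 and steady 900 but low at 12 to 48 h after the step to 600, and Vegfa is high at 3 h and 12 h and low in all steady hyperosmotic groups.

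The step from 600 to 900 mosmol/kg was measured at 12 and 24 h against steady 600. After 12 h 9 members rose and 14 fell (59.0% against 37.8% of all genes, 12.5% higher and 25.3% lower). Vegfa rose most, to 8.85, 8.92 and 8.96, 3.76-fold above steady 600 (1.91 ± 0.10, adjusted p = 7.92e-15). Hk2, at 9.14, 9.21 and 9.18, was higher than on every array of the other groups and rose by 0.87 ± 0.08 (adjusted p = 2.34e-10). Pygm, at 4.64, 5.01 and 4.66, rose by 0.78 ± 0.10 (adjusted p = 1.39e-07) and Egln3, at 9.56, 9.54 and 9.69, by 0.50 ± 0.08 (adjusted p = 7.42e-06). Slc16a3, at 8.37, 8.47 and 7.77, fell by 0.87 ± 0.11 (adjusted p = 2.24e-07), Aldoc, at 6.27, 6.11 and 6.13, by 0.79 ± 0.13 (adjusted p = 9.16e-06), Pygl, at 7.80, 7.63 and 8.01, by 0.77 ± 0.10 (adjusted p = 6.04e-07) and Bnip3, at 7.37, 7.25 and 7.86, by 0.75 ± 0.13 (adjusted p = 3.27e-05).

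Replicate 9 of this group stood apart in Slc16a3 and Bnip3, as those values show, and in Ugp2 (10.46 against 9.80 and 9.78) and Hif1a (11.32 against 10.83 and 10.92). Without it 11 members rose and 14 fell, and the change was -0.65 ± 0.08 for Slc16a3, -0.93 ± 0.13 for Bnip3, -0.64 ± 0.08 for Ugp2 and -0.04 ± 0.10 for Hif1a (adjusted p = 0.795). The split between directions moved with scaling, to 15 up and 14 down with quantile scaling, 15 up and 13 down with cyclic loess scaling and 12 up and 14 down with median centring. Over all genes 67.0% of the calls were lower as deposited. This share was 54.3% with quantile scaling, 55.8% with cyclic loess scaling and 55.1% with median centring. Of the 23 calls 19 held under every alternative. Gpi (-0.30 ± 0.07) missed the threshold with cyclic loess scaling (-0.12, adjusted p = 0.143). Ugp2 (-0.42 ± 0.11) missed it without replicate 2 of the 12 h group (-0.30, adjusted p = 0.0513), Pfkfb3 (0.31 ± 0.10) without steady 600 replicate 2 or 3 (0.24 in each case), and Egln1 (0.31 ± 0.11) without any of 3 single arrays. Of the leukocyte markers 0 of 13 rose and 12 fell, 9 of them by more than 2-fold, of the fibroblast markers 1 of 12 rose and 8 fell, of the endothelial markers 1 of 7 rose and 6 fell, and of the collecting duct markers 3 of 13 rose and 5 fell. Their part in these changes was not tested.

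After 24 h at 900 mosmol/kg 14 members were higher than in steady 600 and 10 lower (61.5% against 25.9% of all genes, 11.2% higher and 14.7% lower). Pdk4 had reached 7.23, 6.96 and 7.06, a rise of 1.32 ± 0.10 (adjusted p = 1.44e-11). Vegfa, at 7.92, 7.96 and 7.996, was still higher by 0.96 ± 0.10 (adjusted p = 1.64e-08). Pfkfb3, at 9.64, 9.55 and 9.52, rose by 0.69 ± 0.10 (adjusted p = 1.83e-06), Hif1a, at 11.38, 11.43 and 11.43, by 0.50 ± 0.10 (adjusted p = 0.000521) and Slc2a1, at 10.79, 10.74 and 10.78, by 0.25 ± 0.06 (adjusted p = 0.0021). Hif1a and Slc2a1 were at their highest of the 10 groups here. Eno2, at 6.39, 6.57 and 6.68, fell by 1.12 ± 0.10 (adjusted p = 5.07e-10), Epas1, at 8.08, 8.31 and 8.19, by 0.91 ± 0.14 (adjusted p = 8.28e-06), Pdk1, at 5.93, 5.93 and 5.97, by 0.80 ± 0.10 (adjusted p = 2.15e-07) and Aldoc, at 6.12, 6.25 and 6.18, by 0.78 ± 0.13 (adjusted p = 2.14e-05). Among the small changes, Pfkm, Tpi1, Pdk2, Pfkfb4, Pygl and Pygb lost their calls without single arrays, where the adjusted p reached at most 0.17 (Pfkfb4 without replicate 9 at 24 h). Of the markers, 5 of 13 for collecting duct rose and 2 fell, 0 of 12 for fibroblasts rose and 10 fell, and 0 of 13 for leukocytes rose and 12 fell; their part in these changes was not tested.

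The cultures that had spent 24 h at 900 mosmol/kg were also set against steady 900, where 6 members were higher and 8 lower (35.9% against 18.3% of all genes, 9.47% higher and 8.83% lower). Vegfa was higher than in steady 900 by 0.98 ± 0.10 (adjusted p = 2.1e-08) and Slc2a1 by 0.48 ± 0.06 (adjusted p = 8.77e-07). Slc16a3, at 8.79, 8.84 and 8.90, was higher by 0.43 ± 0.11, and P4ha1 by 0.33 ± 0.09. Gbe1, at 7.93, 7.82 and 7.91 against 8.79, 8.81 and 8.87, was lower, with a change of -0.94 ± 0.09 (adjusted p = 1.03e-08), as was Pfkfb3 with -0.48 ± 0.10 (adjusted p = 0.000568). Of the 14 calls 9 held under every alternative, and Pfkl, Pdk1, Pfkfb4, Epas1 and Ndrg1 did not, with an adjusted p without single arrays of at most 0.219 (Pfkfb4 without replicate 9 at 24 h). Fibroblast markers were higher than in steady 900 in 8 of 12 cases, 5 of them by more than 2-fold, and lower in 0. Leukocyte markers were higher in 1 of 13 and lower in 8, 7 of these by more than 2-fold, and collecting duct markers higher in 1 of 13 and lower in 4; their part in these differences was not tested.

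The change after the step to 900 was tested against the change after the step to 600 at the same time. At 12 h 5 members had a higher and 2 a lower change after the step to 900 (17.9% against 13.4% of all genes, 6.18% higher and 7.25% lower), and at 24 h 10 had a higher and 1 a lower change (28.2% against 12.9% of all genes, 7.48% higher and 5.46% lower). Vegfa differed at both times: its rise was larger by 1.01 ± 0.14 at 12 h (adjusted p = 8.59e-06), and at 24 h the change of 0.96 after the step to 900 stood against -0.11 after the step to 600, a difference of 1.06 ± 0.14 (adjusted p = 4.17e-06). Pfkfb3 went up after the step to 900 and down after the step to 600, with a difference of 0.80 ± 0.14 at 12 h (adjusted p = 0.0001) and 1.15 ± 0.14 at 24 h (adjusted p = 5.47e-07). Hk2 differed at 12 h by 0.91 ± 0.11 (adjusted p = 4.43e-07), since its change after the step to 600 was only -0.04 ± 0.08, and at 24 h the difference was 0.03 ± 0.11 (adjusted p = 0.912). Hif1a differed at 12 h by 0.54 ± 0.15 (adjusted p = 0.0127), and Ndrg1, with the smaller rise after the step to 900, by -0.46 ± 0.11 (adjusted p = 0.00322).

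At 24 h Pygl had risen by 0.30 after the step to 900, a change that did not hold under every alternative, and fallen by 0.59 after the step to 600, a difference of 0.88 ± 0.15 (adjusted p = 7.75e-05). Pdk4 rose after both steps, by 1.32 and 0.49, and the difference was 0.84 ± 0.14 (adjusted p = 7.61e-05). Adm was the only member with a lower change at 24 h: it had fallen by 0.61 ± 0.10 after the step to 900 and its change after the step to 600 was 0.32 ± 0.10, a difference of -0.92 ± 0.14 (adjusted p = 2.13e-05). Without replicate 9 at 12 h after the step to 900, 5 members had a higher and 5 a lower change at 12 h, with a difference of 0.39 ± 0.13 for Hif1a (adjusted p = 0.0343). Ldhb lost its call at 12 h (-0.43 ± 0.14) without any of 8 single arrays, where the adjusted p reached at most 0.114, and Pfkm at 24 h (0.44 ± 0.12) without steady 600 replicate 2 (0.39, adjusted p = 0.0558) or replicate 2 at 24 h after the step to 600 (0.40, adjusted p = 0.0513). The split at 12 h became 6 higher and 1 lower with median centring and 8 higher and 1 lower with cyclic loess scaling. Over all genes 54.0% of the calls at 12 h were lower as deposited. This share was 43.9% with quantile scaling, 37.5% with median centring and 39.4% with cyclic loess scaling. Leukocyte markers also differed between the steps at 12 h, with 0 of 13 higher and 12 lower, and fibroblast markers, with 1 of 12 higher and 4 lower. At 24 h, 5 of 13 collecting duct markers had a higher and 0 a lower change, and 3 of 13 leukocyte markers a higher and 2 a lower one; their part in these differences was not tested.

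**Figure D4:**
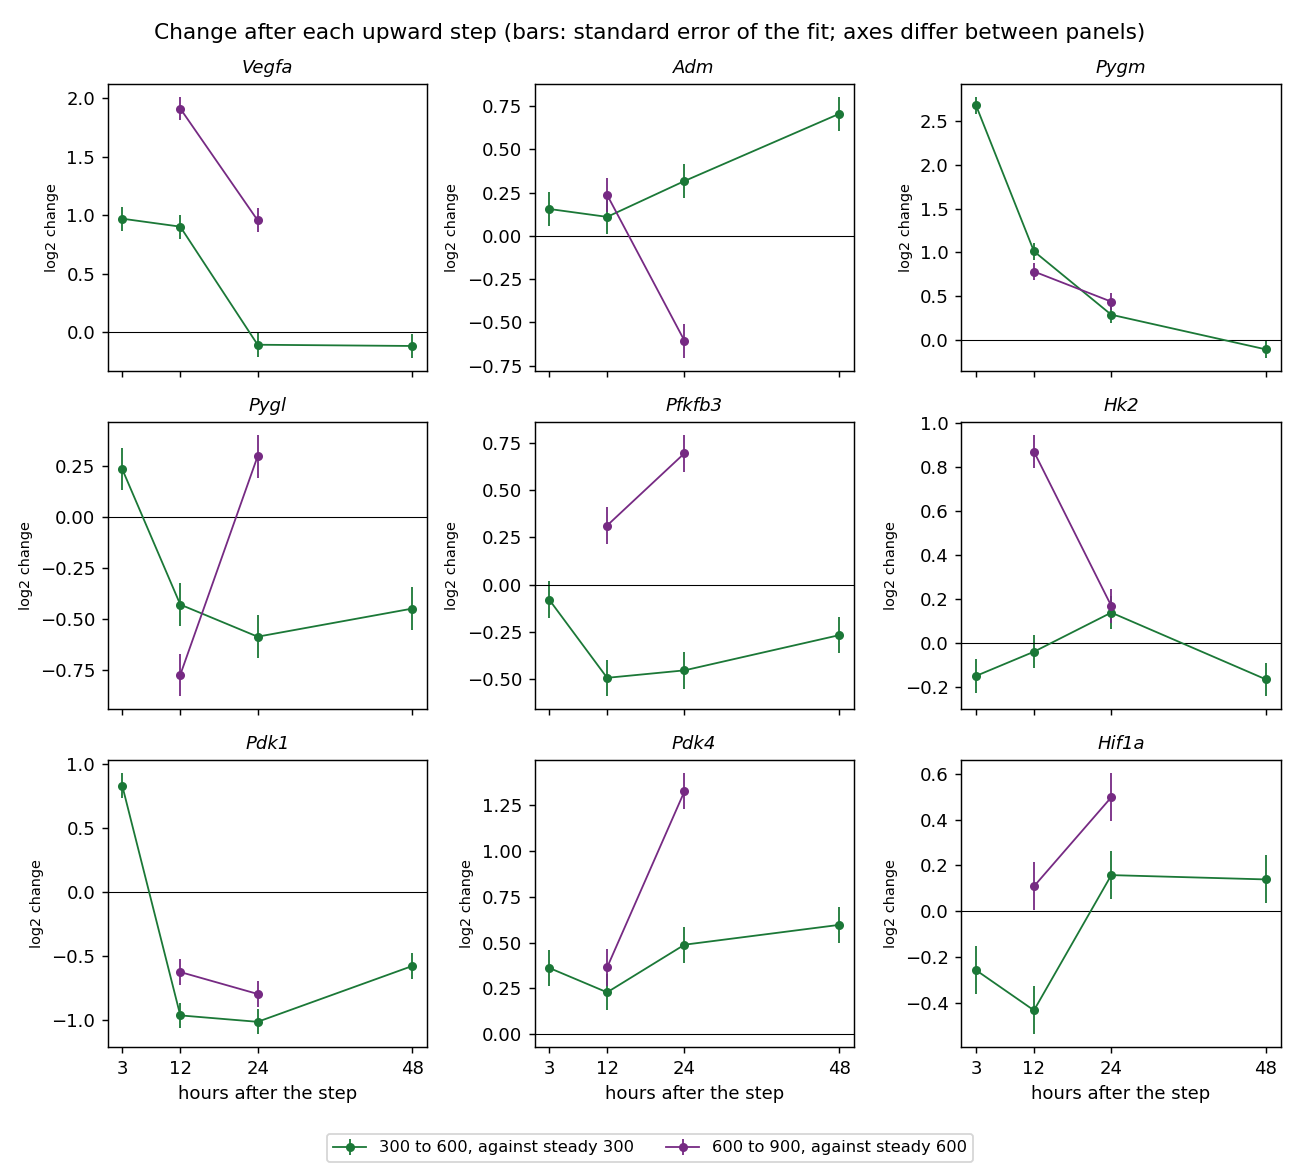
Log2 change of 9 of the 39 genes against hours after the step from 300 to 600 mosmol/kg (green, against steady 300) and from 600 to 900 mosmol/kg (purple, against steady 600); points are fitted changes from 3 arrays per group and bars their standard errors. Vegfa, Pfkfb3 and Hk2 lie higher at 12 h after the step to 900, and Adm lies at 0.71 at 48 h after the step to 600 and at -0.61 at 24 h after the step to 900.

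Cells moved from 900 back to 300 mosmol/kg for 24 h differed from both steady cultures. Against steady 900, 8 members were higher and 14 lower (56.4% against 37.7% of all genes, 19.3% higher and 18.5% lower), and against steady 300, 11 were higher and 17 lower (71.8% against 42.6% of all genes, 20.4% higher and 22.2% lower). Some genes differed from steady 900 and no longer passed the threshold against steady 300. Pfkfb3, at 8.11, 8.12 and 8.20, was 3.74-fold lower than in steady 900 (-1.90 ± 0.10, adjusted p = 4.42e-15), and its difference from steady 300 was 0.12 ± 0.10 (adjusted p = 0.371). Pdk2, at 8.15, 8.20 and 8.10 against 9.20, 8.96 and 9.13 in steady 900, showed the same course, with -0.95 ± 0.09 against steady 900 (adjusted p = 1.1e-09) and -0.19 ± 0.09 against steady 300 (adjusted p = 0.0998), though the latter passed with quantile scaling (adjusted p = 0.0487) and when only the compared arrays were fitted (adjusted p = 0.0314). Hk2, at 8.63, 8.83 and 8.70, rose by 0.41 ± 0.08 (adjusted p = 7.02e-05) and overlapped steady 300.

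Others lay between the steady cultures and differed from both. Pdk4, at 5.77, 5.61 and 5.62, was below steady 900 (-1.38 ± 0.10, adjusted p = 3.74e-12) and higher than in steady 300 by 0.92 ± 0.10 (adjusted p = 5.09e-09). Adm, at 6.57, 6.45 and 6.40, was above steady 900 by 0.82 ± 0.10 (adjusted p = 1e-07), with a difference of -1.08 ± 0.10 from steady 300 (adjusted p = 2.31e-10). Tpi1, at 10.63, 10.62 and 10.62 against 10.21, 10.16 and 10.23 in steady 900, was higher by 0.42 ± 0.12 and remained below steady 300, by -0.43 ± 0.12. Pygl, at 8.73, 8.71 and 8.77, was above steady 300 by 0.91 ± 0.10 (adjusted p = 1.78e-08) and below steady 900 (-0.41 ± 0.10, adjusted p = 0.00218).

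For other genes the difference from steady 900 missed the threshold while that from steady 300 passed it. Eno2, at 6.28, 6.21 and 6.49, overlapped steady 900 and differed from steady 300 by -2.62 ± 0.10 (adjusted p = 8.48e-19). Vegfa, at 7.06, 7.18 and 6.91, differed from steady 900 by 0.07 ± 0.10 (adjusted p = 0.642) and from steady 300 by -1.33 ± 0.10 (adjusted p = 4.9e-12). Slc16a3, at 8.68, 8.62 and 8.61, lay above every steady 900 array, with a difference of 0.22 ± 0.11 (adjusted p = 0.127) that passed when only the compared arrays were fitted (adjusted p = 0.045). It lay at -1.29 ± 0.11 from steady 300 (adjusted p = 5.64e-11), and Epas1, at 8.40, 8.64 and 8.53, at -1.14 ± 0.14 (adjusted p = 6.05e-08).

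Finally, 3 members (2 with quantile or cyclic loess scaling) had their highest group mean of the 10 groups here. Slc16a1, at 8.59, 8.76 and 8.66, exceeded every other array of the series and was 2.04-fold above steady 300 (1.03 ± 0.10, adjusted p = 2.05e-09). Egln3, at 9.66, 9.81 and 9.62, was above steady 900 by 0.40 ± 0.08 (adjusted p = 0.000147) and above steady 300 by 0.97 ± 0.08 (adjusted p = 2.14e-11). The other was Pgk1, at 11.50, 11.60 and 11.52, above steady 300 by 0.46 ± 0.08. Hif1a moved the opposite way, to 10.44, 10.54 and 10.41, a change of -0.79 ± 0.10 from steady 900 (adjusted p = 5.01e-07) and of -0.45 ± 0.10 from steady 300 (adjusted p = 0.000737). Aldoc, Pfkfb4, Gbe1, Bnip3 and Ndrg1 lost their calls against steady 900 without single arrays (adjusted p at most 0.155, Ndrg1 without steady 900 replicate 1), and Gbe1 lost its call against steady 300 (at most 0.161, without replicate 2 of the returned cultures). Against steady 300, 10 of 13 collecting duct markers were higher and 0 lower, 0 of 12 fibroblast markers higher and 11 lower, and 0 of 13 leukocyte markers higher and 13 lower, so the returned cultures did not carry the marker levels of steady 300. Against steady 900, 0 of 13 collecting duct markers were higher and 10 lower, 3 of 12 fibroblast markers higher and 2 lower, and 0 of 13 leukocyte markers higher and 9 lower; the part of these markers in the results was not tested.

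Other genes of the same pathways, from lists drawn up by function, also went both ways. Of 34 further glycolysis and pyruvate genes measured, 10 rose and 6 fell in steady 900 against steady 300 (47.1%, near the 42.4% of all genes), led by Pc, which makes oxaloacetate from pyruvate (1.94 ± 0.09), the hexokinase gene Hk3 (-1.21 ± 0.12) and the muscle enolase gene Eno3 (0.98 ± 0.14). Of 15 further glycogen genes 6 rose and 2 fell (53.3%), led by the phosphorylase kinase subunit gene Phkg2 (0.68 ± 0.08), Ppp1r3d, which targets a phosphatase to glycogen (-0.64 ± 0.10), and Phkb, another subunit gene of that kinase (0.46 ± 0.12). Of 29 further hypoxia genes 6 rose and 13 fell (65.5%). Car12, a carbonic anhydrase gene, rose by 4.46 ± 0.12 (adjusted p = 7.87e-23), while the collagen-crosslinking genes Loxl2 and Lox, which fibroblasts express strongly, fell by 3.20 ± 0.08 and 2.94 ± 0.12.

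At 12 h after the step to 600 the further glycolysis and pyruvate genes numbered 6 up and 13 down (55.9% against 34.5% of all genes), the largest being Pfkfb2 (-0.81 ± 0.08), Pck2 (-0.79 ± 0.10) and Pgm2 (-0.73 ± 0.07). Among the further glycogen genes 2 of 15 rose and 4 fell, a share near the 34.5% of all genes called. The largest changes were Phkb at -0.70 ± 0.12, the lysosomal glucosidase gene Gaa at -0.52 ± 0.09 and the kinase gene Gsk3a at 0.44 ± 0.10. The further hypoxia genes numbered 9 up and 7 down (55.2%), with Car12 at 1.75 ± 0.12, the lipoprotein receptor gene Vldlr at -0.87 ± 0.09 and the heme oxygenase gene Hmox1 at 0.63 ± 0.10. At 3 h the further glycolysis and pyruvate genes leaned down, 6 against 19 (73.5% against 41.6% of all genes), where the 14 core genes had 2 up and 0 down. That core count changed when the uneven replicate 3 at 3 h was left out. Hk1, Pfkl and Tpi1 were then called up, and Pgam1 (-0.28) and Eno1 (-0.23) down. The further lists were counted on the deposited values only. With quantile scaling the 39 members had 23 up and 0 down at 3 h, and with cyclic loess scaling 22 up and 0 down. All genes leaned down at that time too, and the difference between the lists was not tested.

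More than 1 probe set was named for 5 members, Bnip3, Egln1, Eno1, Ldha and Pgam1. For Bnip3 the second set gave means of 8.29 in steady 300, 7.78 in steady 900 and 7.40 at 12 h after the step to 600, close to the 8.52, 7.96 and 7.52 of the set used. The dimmer Ldha set went from 11.40 in steady 300 to 11.83 in steady 900, and the set used from 12.64 to 13.03. A second Pgam1 set was dim, at 6.03 in steady 300 against 12.55. For Egln1 the second set was uneven at 3 h after the step to 600, with a mean of 6.79 ± 0.53 (SD, n = 3) against 6.64 ± 0.18 in steady 300. Eno1, Ldha and Pgam1 belong to families with many near-identical copies in mammalian genomes, so their values may include signal from such copies.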

How the data were processed

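Deposited were log2 values that the authors obtained by RMA (robust multi-array average), per the submitters' processing notes. The sources used here do not give its version or background model. Very dim and very bright probe sets respond less than in proportion on such arrays. Of 29170 probe sets, 15310 had 1 gene symbol in the platform annotation, and the one with the highest mean over the 30 arrays stood for its gene, giving 14506 genes. Groups were taken from sample titles. limma 3.58.1 in R 4.3.3 fitted 1 mean per group over the 30 arrays (lmFit, eBayes), with Benjamini-Hochberg adjustment across 14506 genes and a threshold of 0.05. Changes are log2 differences ± standard error of the fit (SE), with n = 3 arrays per group, whose number limits the precision. The fit was also run on simulated data with known changes, independent noise and no outlying arrays. That run does not bear on the uneven arrays or the scaling here. Alternatives were quantile, median and cyclic loess scaling, a filter at the 30th percentile, averaged probe sets, trended and robust variances, only the compared arrays, a replicate block and leaving out single arrays. Values array by array were given for 13 members fixed by name and for the largest called changes in each comparison, up to 4 in each direction, plus a few members used as contrasts. The members, gene lists and rules were chosen with earlier results of these data known.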

Additional observations from a re-analysis of the deposited data

Results flagged for a closer look

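The changes after the steps to 900 and to 600 mosmol/kg differed, by the limma test of the difference itself, in 7 members at 12 h (17.9% of members, near the 13.4% of all genes) and in 11 members at 24 h (28.2% against 12.9% of all genes). At 12 h the change after the step to 900 was higher for Vegfa by 1.01, for Hk2 by 0.91, for Pfkfb3 by 0.80, for Hif1a by 0.54 and for Slc2a1 by 0.44, and the difference was -0.46 for Ndrg1 and -0.43 for Ldhb. At 24 h it was higher for Pfkfb3 by 1.15, Vegfa by 1.06, Pygl by 0.88, Pdk4 by 0.84, Slc16a3 by 0.79, Aldoc by 0.72, Pgk1 by 0.62, Pfkm by 0.44, Pfkp by 0.42 and Slc2a1 by 0.33, and the difference was -0.92 for Adm. Slc2a1, Pfkfb3 and Vegfa are in both sets. The values of Vegfa on each array, and of Hif1a at 12 h, are given further above. Hk2 was at 8.73, 8.75 and 8.94 at 12 h after the step to 600. Pfkfb3 was at 9.12, 9.18 and 9.26 at 12 h after the step to 900, and at 7.65, 7.46 and 7.62 at 24 h after the step to 600. At 24 h Pygl was at 7.28, 7.29 and 7.15 after the step to 600, and at 8.87, 8.88 and 8.89 after the step to 900. Adm was then at 7.86, 7.84 and 7.92 after the step to 600, and at 5.88, 5.89 and 5.58 after the step to 900. Groups of 3 arrays were too small for a search for single outlying values.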

How the results depend on the processing

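Of 280 calls of members in the 13 comparisons of 2 groups, 229 held under every alternative tried and 51 were lost under at least 1. Over these and the 2 differences of changes, 8643 results of a member under an alternative were computed: 8267 kept direction and side of the threshold, 212 fell short of it, 163 passed it newly and 1 reversed. Pygm, dropped by the filter at the 30th percentile, has no result under it. The reversal was Eno1 at 12 h after the step to 900, which went from -0.08 to 0.18 with cyclic loess scaling (adjusted p = 0.0113); the cause was not tested. The count of called members left the range of 1.5 times its value only at 3 h after the step to 600, where it was 12, or 23 with quantile and 22 with cyclic loess scaling; leaving out single arrays gave 10 to 19, the highest without replicate 3 at 3 h, and the cause was not tested. No scaling moved the median change of all genes by over 0.1. That median does not show how far the members moved. At 3 h after the step to 600, quantile scaling shifted it by 0.03, while the median change of the members went from 0.10 to 0.26.

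With the replicate number as a block the counts were 14 at 3 h after the step to 600, 25 at 12 h and 22 at 24 h after the step to 900, 13 at 24 h at 900 against steady 900, 23 and 27 after the return against steady 900 and steady 300, and 8 for the difference of changes at 12 h; the other comparisons kept their count. The numbers were not taken to pair samples: deviations of same-numbered arrays correlated over 0.1 in 3 of 34 pairs (-0.10 to 0.24), and in 0 of 8 comparisons with 3 shared numbers did all pairs. Pygm and Pdk4 in steady 300 lie at the low end of the scale, where changes can be understated.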
